A study of Mus musculus with 6 samples.

Results

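Expression of 9 genes of the Krüppel-like factor family, Klf2, Klf3, Klf4, Klf6, Klf7, Klf9, Klf10, Klf12 and Klf13, was examined in 6 mouse thymic lymphomas. The genes were chosen with earlier results of these data known, so their counts beside the shares of all probe sets are descriptions. Every probe set whose array annotation gives exactly 1 of these symbols was taken, which gave 35 of the 45101 probe sets. The array holds 18193 genes with a single symbol. Each tumour came from 1 mouse and was read on 1 Affymetrix array. All 6 mice were IkL/L, homozygous for a hypomorphic allele of the Ikaros gene, and CD4-Cre+, so that the control mice carried the Cre transgene too. The 3 control mice had wild-type Notch1 (IkL/L Notch1+/+ CD4-Cre+) and were 18 to 20 weeks old. In the other 3 mice Notch1 was floxed (IkL/L Notch1f/f CD4-Cre+), the labels describe a deletion of its promoter and exon 1, and the mice were 8 to 10 weeks old. Age and genotype changed together, and their effects cannot be told apart. The Cre is driven by the CD4 promoter, which acts in developing T cells. The tumours were dispersed and not sorted, so RNA of other cells is included, and in such samples a larger number of cells of a type and more RNA per cell cannot be told apart.

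Krüppel-like factors are transcription factors that end in 3 zinc fingers and bind CACCC and GC-rich boxes, where relatives of the Sp family bind as well. The members differ in the part before the fingers. Klf2, Klf4, Klf6 and Klf7 are activators that recruit acetyltransferases, although Klf4 also represses, Klf3 and Klf12 bind the corepressor CtBP, and Klf9, Klf10 and Klf13 bind the corepressor Sin3. In T cells Klf2 is known for keeping cells quiescent and for driving the receptors by which mature thymocytes leave the thymus, and Foxo1 activates its gene.

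The promoters of Klf2, Klf6 and Klf13 are shown because these were the genes with tested probe sets higher in every Notch1f/f tumour than in any Notch1+/+ tumour. Each sequence is the 250 bases before the RefSeq start of the gene in build GRCm38.p6, written 5′ to 3′ on the strand of the gene. A promoter entry was matched for 8 of the 9 genes. Capitals mark every match, on either strand, to CACCC (the core Klf box), GGGCGG (the GC box), CCAAT (the NF-Y box), TGTTTAC (a Foxo site) and TAAATTTA (a core of the Mef2 site), and neighbouring matches can overlap. The windows lie at chr8:72318812-72319061 (plus strand) for Klf2, chr13:5861239-5861488 (plus strand) for Klf6 and chr7:63938916-63939165 (minus strand) for Klf13.
Klf2: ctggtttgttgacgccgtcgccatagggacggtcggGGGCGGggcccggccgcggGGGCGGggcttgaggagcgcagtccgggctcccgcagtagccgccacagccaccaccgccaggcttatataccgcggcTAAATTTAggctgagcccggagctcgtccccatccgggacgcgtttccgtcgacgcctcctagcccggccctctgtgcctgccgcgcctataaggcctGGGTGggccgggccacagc
Klf6: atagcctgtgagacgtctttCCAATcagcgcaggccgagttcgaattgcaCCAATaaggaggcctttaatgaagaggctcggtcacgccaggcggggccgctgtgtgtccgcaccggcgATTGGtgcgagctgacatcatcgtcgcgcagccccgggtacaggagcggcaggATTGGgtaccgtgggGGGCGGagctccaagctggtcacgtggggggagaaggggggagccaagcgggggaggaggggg
Klf13: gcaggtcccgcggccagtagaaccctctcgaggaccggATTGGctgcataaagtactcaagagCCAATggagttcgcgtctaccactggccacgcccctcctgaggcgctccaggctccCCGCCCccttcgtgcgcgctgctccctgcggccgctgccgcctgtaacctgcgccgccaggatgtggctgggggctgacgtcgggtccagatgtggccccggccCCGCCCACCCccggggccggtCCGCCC
The Klf2 window holds 1 match to CACCC, 2 to GGGCGG and 1 to TAAATTTA, which begins 117 bases before the start. The Klf6 window holds 4 matches to CCAAT and 1 to GGGCGG. The Klf13 window holds 2 matches to CCAAT, 3 to GGGCGG and 1 to CACCC. None of these 3 windows holds TGTTTAC. Over 32851 windows of the same length, CACCC was found in 52.0%, GGGCGG in 32.7%, CCAAT in 33.8%, TGTTTAC in 3.17% and TAAATTTA in 0.502%. The letters are a description, and no binding was measured here.

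The deposited values are MAS5 signal intensities on a linear scale, scaled per array. A probe set was tested where its mean log2(intensity + 16) was at least the 40th percentile, 4.56, which 25 of the 35 Klf probe sets reached. The other 10, which were all 5 of Klf12, 3 of the 7 of Klf9, 1 of the 7 of Klf3 and 1 of the 3 of Klf13, had intensities of at most 14.6 in every tumour and were not tested. Differences below are Notch1f/f minus Notch1+/+ of log2(intensity + 16). The added 16 makes folds of dim probe sets smaller than those of their intensities. The limma p-values set the difference between genotypes against the spread between the 3 tumours of a genotype, moderated over all tested probe sets. The targeted gene, Notch1, had intensities of 1792.5, 655.9 and 567.9 in Notch1+/+ tumours 1 to 3 and of 2026.2, 1346.2 and 2211.5 in Notch1f/f tumours 1 to 3 on probe set 1418633_at, and lay between 2532 and 3637 in all 6 tumours on 1418634_at. Its signal was thus not lower in the Notch1f/f tumours. Whether these probes lie in the deleted part is not given in the sources used here, so they do not check the genotype labels. The T cell markers Cd3d, at 2829 to 5798, and Thy1, at 3657 to 4962, were bright in all 6 tumours. Not all of the 11 measured T cell markers were so bright. Cd4 ran from 124.4 to 461.9 and Rag2 from 13.5, in Notch1f/f tumour 3, to 462.9, in Notch1+/+ tumour 3.

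None of the 25 tested Klf probe sets passed an adjusted p of 0.05 in limma, where 0.0185% of all 27022 tested probe sets did, and none passed 0.10, where 0.148% did. Their adjusted p-values ran from 0.204 to 0.993. An unadjusted limma p under 0.05 was found for 6 of the 25, each with the higher mean in the Notch1f/f tumours, against 13.5% of all probe sets in either direction. The 6 belong to 3 genes, 1 to Klf2, 3 to Klf6 and 2 to Klf13, and probe sets of 1 gene in the same tumours are not independent results. In the same 6 probe sets the intensities of the genotypes did not overlap, and 1 more, of Klf10, was lower in every Notch1f/f tumour. Over all probe sets, 18.6% did not overlap, 8.13% with higher and 10.4% with lower values in the Notch1f/f tumours. A difference above 0 was found for 21 of the 25 and below 0 for 4, with a median of 0.37 against -0.04 for all probe sets.

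**Figure D1:**
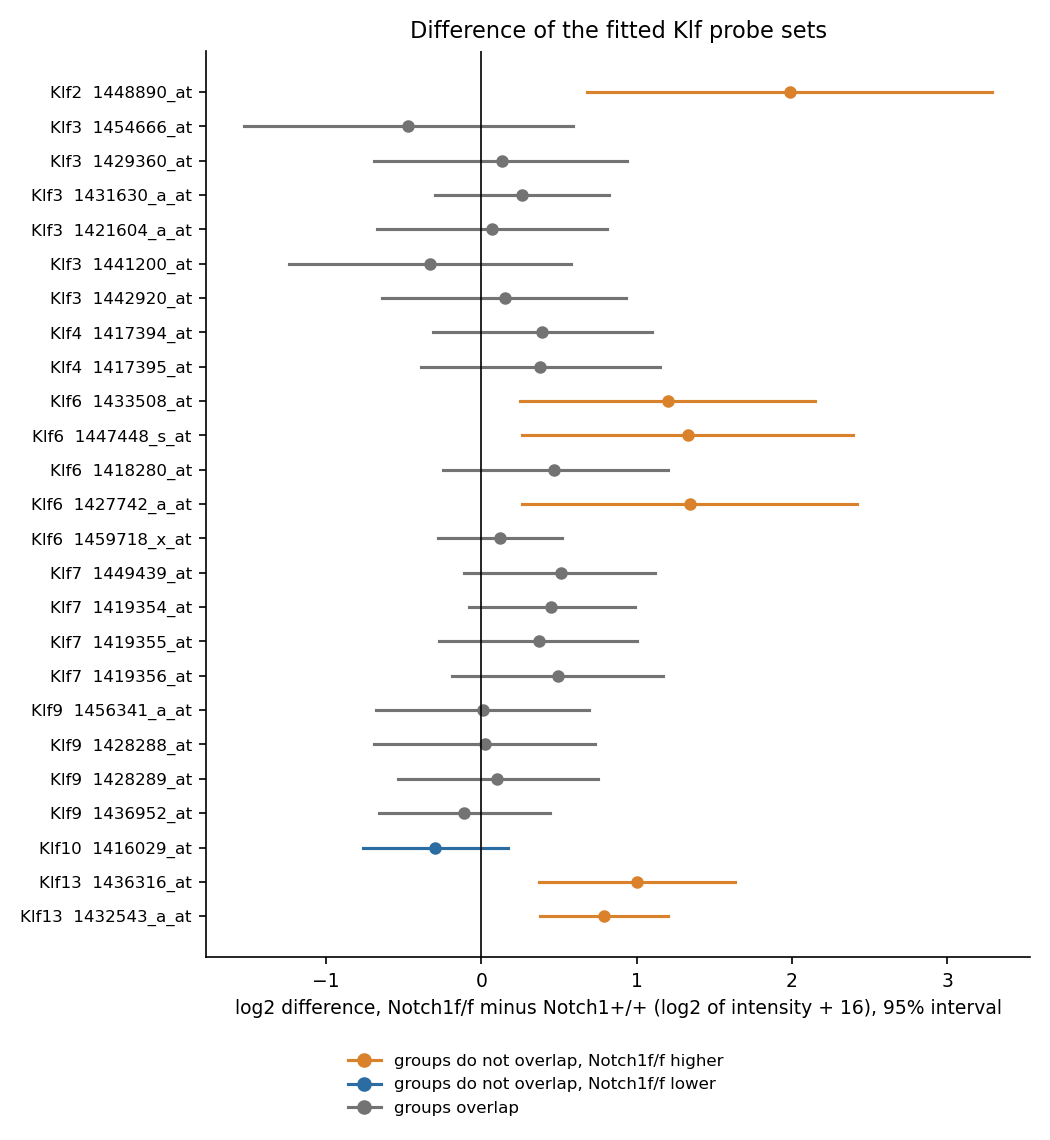
Log2 difference of each tested Klf probe set, Notch1f/f minus Notch1+/+ on the scale of log2(intensity + 16), with the 95% interval of the limma fit. Points are coloured by whether the 3 tumours of a genotype all lie above or below the 3 of the other, and Klf2, at 1.99, lies farthest from 0.

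All 12 probe sets of the activators Klf2, Klf4, Klf6 and Klf7 were tested and had a difference above 0, with a median of 0.48. They are repeated readings of 4 genes in the same tumours, 1 of Klf2, 2 of Klf4, 5 of Klf6 and 4 of Klf7. Over all genes, each by its brightest tested probe set, 5833 of 12043 had a difference above 0. Klf2 had intensities of 35.9, 134.5 and 89.1 in Notch1+/+ tumours 1, 2 and 3, and of 197.1, 232.7 and 946.1 in Notch1f/f tumours 1, 2 and 3. Every Notch1f/f tumour lay above every Notch1+/+ tumour, and Notch1f/f tumour 3 stood far above the others of its genotype. The log2 difference of Klf2 was 1.99 ± 0.58 (SE, n = 3 per genotype), a 3.96-fold difference with a 95% interval of 0.68 to 3.29 on the log2 scale. In limma the unadjusted p was 0.00735 and the adjusted p 0.280. An exact two-sided permutation test gave p = 0.1, the smallest that 3 tumours against 3 allow. Without Notch1f/f tumour 3 the difference of Klf2 was 1.30 (limma unadjusted p = 0.0177, adjusted p = 0.518).

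Klf6, which is induced early by growth factor and stress signals in many cells, was read by 5 probe sets. The brightest (1433508_at) had intensities of 45.2, 95.4 and 74.4 in Notch1+/+ tumours 1 to 3 and of 140.3, 110.2 and 363.4 in Notch1f/f tumours 1 to 3. The genotypes did not overlap, and the highest value was again that of Notch1f/f tumour 3. Its log2 difference was 1.20 ± 0.42 (limma unadjusted p = 0.0183, adjusted p = 0.299). The probe sets 1447448_s_at and 1427742_a_at differed by 1.33 ± 0.47 and 1.34 ± 0.48, each without overlap and with a limma adjusted p of 0.304. The remaining Klf6 probe sets overlapped, with differences of 0.47 ± 0.32 for 1418280_at and 0.12 ± 0.18 for the dim 1459718_x_at, whose suffix marks probes that can read other transcripts. Without Notch1f/f tumour 3 the 3 probe sets without overlap differed by 0.72 (limma unadjusted p = 0.0553), 0.76 (0.0473) and 0.82 (0.0619), with adjusted p-values of 0.559, 0.549 and 0.573.

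Klf4, a factor that holds cells out of the cell cycle and is also active in macrophages and epithelia, was dim. Its brighter probe set had intensities of 8.5, 13.0 and 17.9 in Notch1+/+ tumours 1 to 3 and of 13.3, 13.6 and 46.8 in Notch1f/f tumours 1 to 3. Only Notch1f/f tumour 3 lay above all Notch1+/+ tumours on it. The differences of its probe sets were 0.39 ± 0.31 and 0.38 ± 0.34 (limma adjusted p = 0.592 and 0.637), and both were 0.03 without Notch1f/f tumour 3.

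Klf7, a factor first known from neurons and also present in lymphocytes, had 4 tested probe sets that read alike. The brightest had intensities of 367.1, 251.1 and 197.8 in Notch1+/+ tumours 1 to 3 and of 479.4, 305.3 and 379.4 in Notch1f/f tumours 1 to 3. The groups overlapped, because Notch1+/+ tumour 1 lay above Notch1f/f tumour 2. The 4 differences ran from 0.37 ± 0.28 to 0.51 ± 0.27, with limma adjusted p-values from 0.426 to 0.581. Without Notch1f/f tumour 1 they ran from 0.15 to 0.35. Unlike Klf2, Klf4 and Klf6, the highest Klf7 value on each probe set was that of Notch1f/f tumour 1.

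**Figure D2:**
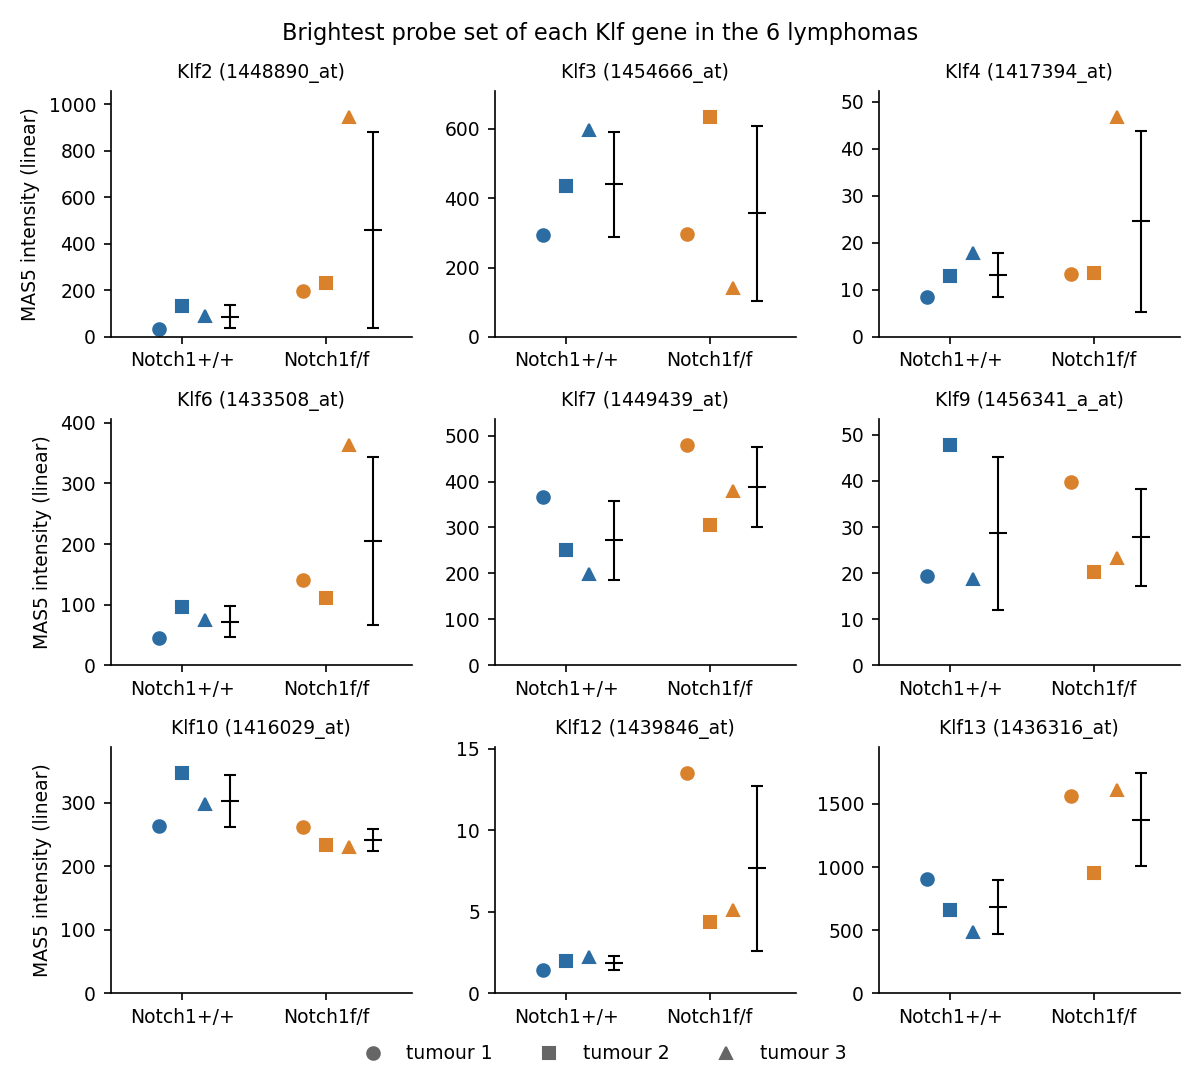
MAS5 intensity (linear axis from 0) of the brightest probe set of each gene, with 1 symbol per tumour and, in black, the mean ± SD of 3 tumours. Klf2, Klf6 and Klf13 (higher) and Klf10 (lower) do not overlap between genotypes, Notch1f/f tumour 3 (triangle) is highest for Klf2, Klf4, Klf6 and Klf13, and the Klf12 values, at most 13.5, were under the limit for testing.

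The CtBP-binding repressors gave 6 tested probe sets, all of Klf3, with 4 differences above 0 and 2 below. Klf3, which represses genes in blood and fat cells and competes with activating family members, had on its brightest probe set intensities of 292.9, 434.4 and 595.6 in Notch1+/+ tumours 1 to 3 and of 296.1, 634.7 and 140.9 in Notch1f/f tumours 1 to 3. The groups overlapped fully, and Notch1f/f tumours 2 and 3 held the highest and the lowest value. Its differences ran from -0.47 ± 0.47 on this probe set to 0.26 ± 0.25 on 1431630_a_at, with limma adjusted p-values from 0.664 to 0.941. Notch1f/f tumour 3 was lowest of the 3 Notch1f/f tumours on 5 of the 6 probe sets, and highest on 1431630_a_at. The direction of the brightest one rested on this tumour, since without it the difference was 0.04.

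Klf12, a repressor named for its action on the AP-2 alpha gene, was not tested. Its highest intensity in any tumour on any of 5 probe sets was 13.5. That value was of probe set 1439846_at, which had 1.4, 2.0 and 2.2 in Notch1+/+ tumours 1 to 3 and 13.5, 4.4 and 5.1 in Notch1f/f tumours 1 to 3. These values did not overlap but lie under the limit for testing, and no detection calls were used here.

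The Sin3-binding factors gave 7 tested probe sets that went different ways, 2 of Klf13 higher and 1 of Klf10 lower without overlap and 4 of Klf9 near 0. Klf13, a factor that in T lymphocytes drives late expression of the chemokine gene Ccl5, had the smallest p-values of the family. Its probe set 1432543_a_at had intensities of 650.9, 628.7 and 729.0 in Notch1+/+ tumours 1 to 3 and of 1341.7, 993.1 and 1198.1 in Notch1f/f tumours 1 to 3. The genotypes lay well apart, and the 3 Notch1+/+ tumours were close together. The mean was 1178 ± 175 (SD, n = 3) against 670 ± 52.7, a log2 difference of 0.79 ± 0.18 (95% interval 0.38 to 1.20, limma unadjusted p = 0.00177, adjusted p = 0.204). Probe set 1436316_at had 907.7, 663.0 and 482.0 in Notch1+/+ tumours 1 to 3 and 1559.8, 951.4 and 1614.1 in Notch1f/f tumours 1 to 3, a log2 difference of 1.00 ± 0.28 (limma unadjusted p = 0.00593, adjusted p = 0.267). On this second probe set Notch1f/f tumour 2 lay only just above the highest Notch1+/+ tumour. With each tumour left out in turn, the 2 differences stayed between 0.69 and 0.91 and between 0.77 and 1.24, with the lowest adjusted p-values, 0.0799 and 0.0876, when Notch1f/f tumour 2 was left out. The third Klf13 probe set was too dim to test.

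Klf10, a factor induced by TGF-beta that restrains proliferation, was the only member lower in all 3 Notch1f/f tumours. It had intensities of 264.1, 346.7 and 298.4 in Notch1+/+ tumours 1 to 3 and of 262.3, 233.5 and 231.0 in Notch1f/f tumours 1 to 3. The groups met almost at 1 point, at 262.3 in Notch1f/f tumour 1 and 264.1 in Notch1+/+ tumour 1. The log2 difference was -0.30 ± 0.21 (limma unadjusted p = 0.180, adjusted p = 0.539). With each array centred on its median, the number of tested Klf probe sets without overlap was 6 in place of 7, since Klf10 then overlapped.

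Klf9, a target of glucocorticoid and thyroid hormone receptors, had 4 tested probe sets. On the brightest it had 19.4, 47.8 and 18.6 in Notch1+/+ tumours 1 to 3 and 39.8, 20.3 and 23.2 in Notch1f/f tumours 1 to 3. The groups overlapped fully, with the highest value in Notch1+/+ tumour 2. The 4 differences lay between -0.11 ± 0.24 and 0.10 ± 0.29, with 95% intervals reaching from -0.69 to 0.75, so that a difference of that size in either direction is within the error.

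Notch1f/f tumour 3 had the highest intensity of the 6 tumours in 9 of the 25 tested Klf probe sets (36.0%) and in 18.8% of all tested probe sets. Notch1f/f tumour 1 was highest in 7 (28.0%), against 17.3% of all, and Notch1+/+ tumour 1 in none, against 21.1%. The tumours were in the same order for the brightest probe sets of Klf2 and Klf6 apart from Notch1f/f tumours 1 and 2, which changed places. On its brightest probe set Klf13 ordered the Notch1+/+ tumours differently, with tumour 3 lowest and tumour 1 highest.

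Some markers of other cells moved with these genes. The summed intensity of the 8 macrophage markers ran from 240 to 829 with wild-type Notch1 and from 1291 to 2728 with floxed Notch1. Of the 8, 5 were higher in every Notch1f/f tumour and none was lower in every one. Adgre1, at 27.1 ± 9.87 against 34.1 ± 16.5, and Itgam, at 11.6 ± 7.22 against 18.1 ± 7.24, had lower means in the Notch1f/f tumours, with overlap. Notch1+/+ tumour 1 had the lowest sum and Notch1f/f tumour 3 the highest, as for Klf2, Klf4 and Klf6. Lyz2, the lysozyme of macrophages, had 77.0, 261.3 and 159.4 in Notch1+/+ tumours 1 to 3 and 284.5, 364.9 and 1122.5 in Notch1f/f tumours 1 to 3, the same order of tumours as Klf2. No other marker of the 8 had that order. C1qa, for example, had 114.3 and 134.7 in Notch1+/+ tumours 2 and 3 and 235.6 and 228.8 in Notch1f/f tumours 1 and 2. The 6 dendritic cell markers summed to 94.2 to 347 against 351 to 3152, with Flt3, Xcr1 and Siglech at no more than 18.4 in any tumour. Most of the highest sum, that of Notch1f/f tumour 3, was H2-Aa, at 1223.3, and Cd74, at 1829.8. These were the 2 of the 6 without overlap, so the sum does not single out dendritic cells. The 5 measured B cell markers summed to 39.0 to 66.3 against 83.9 to 264. The sum of the 6 fibroblast markers went the other way, at 229 to 1270 against 55.3 to 124, but each of the 6 overlapped. Most of the highest sum, that of Notch1+/+ tumour 2, was Col1a2, at 977.6. The 8 endothelial markers, of a cell type in which Klf2 and Klf4 are abundant, summed to 173 to 309 against 246 to 266, and 7 of them, Cdh5, Kdr, Tek, Emcn, Vwf, Nos3 and Cldn5, stayed at or below 19.5. Neutrophil markers (5 measured) summed to 149 to 278 against 98.4 to 160, thymic epithelial markers (6) to 49.3 to 54.7 against 41.8 to 62.8, and T cell markers (11) to 17569 to 19494 against 20757 to 24097. The part of other cells in the Klf values was not tested.

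The 5 genes whose pattern over the 6 tumours was most like that of Klf2 were Lyz2, at a Pearson r of 0.996 on the log2 scale, St6galnac4 (0.996), a sialyltransferase, Vat1 (0.994), a membrane protein, Ctsd (0.991), a lysosomal protease, and Tex264 (0.990), a receptor for autophagy of the endoplasmic reticulum. These are descriptions over 6 points that share the split by genotype, and 125 of the other 27021 tested probe sets had an r of at least 0.95 with Klf2.

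**Figure D3:**
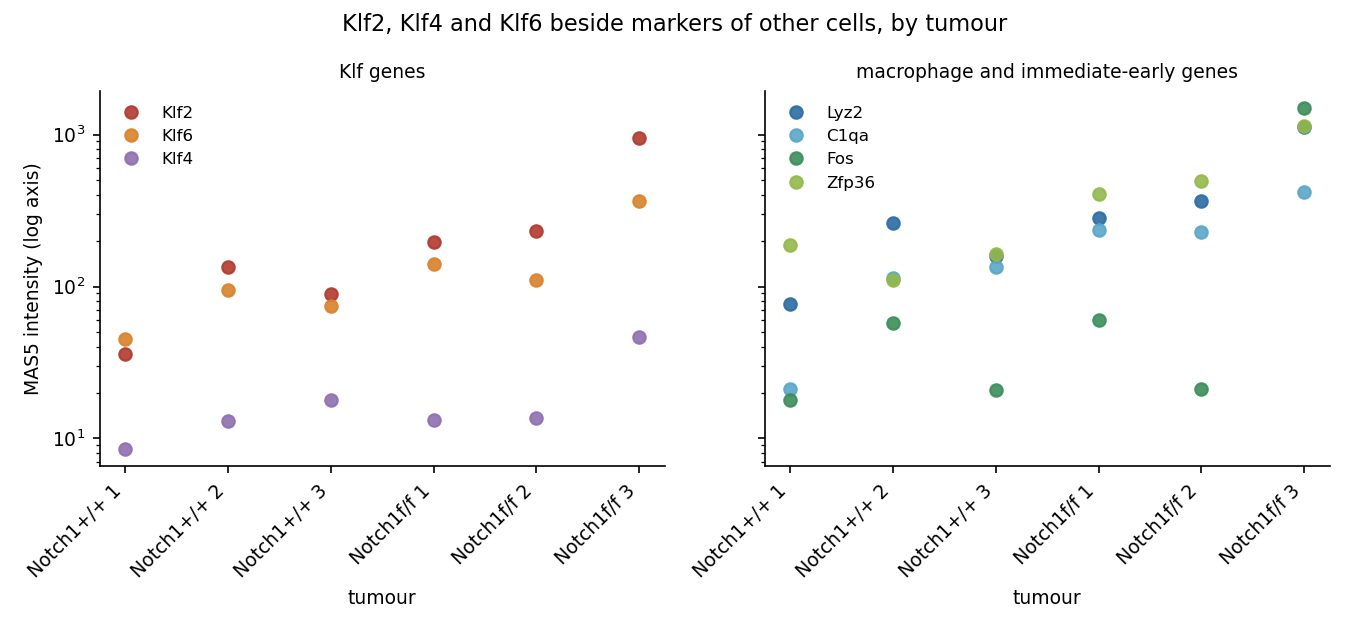
MAS5 intensity (log axis) in each of the 6 tumours of Klf2, Klf6 and Klf4 on the left, and of the macrophage genes Lyz2 and C1qa and the immediate-early genes Fos and Zfp36 on the right. Klf2 and Lyz2 place the tumours in the same order, from Notch1+/+ tumour 1 (35.9 and 77.0) to Notch1f/f tumour 3 (946.1 and 1122.5). C1qa has Notch1+/+ tumours 2 and 3, and Notch1f/f tumours 1 and 2, the other way round.

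Genes known to act around these factors were counted in 8 lists, each gene by its brightest tested probe set, and a gene is called measured where it had one. The lists too were chosen with earlier results of these data known, so their counts are descriptions. None of their genes passed an adjusted p of 0.05 in limma, where 0.0415% of 12043 genes did. Over all genes, an unadjusted p under 0.05 was found for 6.86% with higher and 6.15% with lower values in the Notch1f/f tumours, and 9.15% and 9.17% had no overlap on the higher and the lower side. The median difference over all genes was -0.01.

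Of the T cell trafficking genes tied to Klf2, 6 were measured, 5 of them with a difference above 0 and 3 at an unadjusted p under 0.05, with a median of 1.05. That median was 0.54 with a pseudocount of 64 and 1.46 with a pseudocount of 1. S1pr1, the receptor for exit from the thymus and a direct Klf2 target, had 6.4, 16.7 and 27.6 in Notch1+/+ tumours 1 to 3 and 67.5, 49.1 and 72.1 in Notch1f/f tumours 1 to 3. Ccr7, a homing receptor, had 1.0, 0.5 and 16.9 against 55.2 to 93.6 (limma adjusted p = 0.0981). Both were higher in each Notch1f/f tumour, as was Cd69, which holds S1pr1 inside the cell, at 106 ± 47.4 against 34.7 ± 13.8 (limma unadjusted p = 0.00603). S1pr4, a relative of S1pr1, had 52.1 ± 6.44 against 31.3 ± 18.4, Itgb7, an integrin chain, 68.7 ± 29.7 against 36.8 ± 35.9, and Cxcr3, a receptor that rises in cells without Klf2, 19.1 ± 5.76 against 24.0 ± 1.20, and these 3 overlapped. Without Notch1+/+ tumour 3, Ccr7 differed by 2.34 and passed (limma adjusted p = 0.0401).

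Of 11 measured genes of the Foxo, PI3K and Erk5 routes that control Klf genes, 9 had a difference above 0 and 5 an unadjusted p under 0.05, all 5 on the higher side, with a median of 0.47. Foxo1, which activates Klf2, had 341.3, 238.4 and 225.0 in Notch1+/+ tumours 1 to 3 and 424.2, 448.4 and 536.3 in Notch1f/f tumours 1 to 3, a log2 difference of 0.79 ± 0.23 (limma unadjusted p = 0.00670, adjusted p = 0.274). Foxo4 differed by 0.75 ± 0.26 and Akt1, a kinase that keeps Foxo proteins out of the nucleus, by 0.62 ± 0.19, both without overlap. Foxo3 differed by -0.03 ± 0.31. The Erk5 gene Mapk7 and its kinase Map2k5 had differences of -0.10 ± 0.24 and 0.27 ± 0.22, with overlap. The list median was 0.19 without Notch1+/+ tumour 3.

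Of 14 measured co-regulators and ubiquitin ligases of Klf proteins, 7 had a difference above 0 and 7 below, with a median of 0.08. The deacetylase genes Hdac2, at 654 ± 126 against 1098 ± 99.0, and Hdac1, at 1203 ± 269 against 1773 ± 223, were lower in every Notch1f/f tumour (limma unadjusted p = 0.00396 and 0.0174, adjusted p = 0.250 and 0.297). The acetyltransferase gene Crebbp, at 772 ± 27.5 against 536 ± 114, and Sin3b were higher without overlap. Ctbp1, the partner of Klf3 and Klf12, differed by 0.29 ± 0.22 and Sin3a, a partner of the Sin3-binding factors, by -0.05 ± 0.20, both with overlap.

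Of 9 TGF-beta signalling genes, all measured, 7 had a difference above 0 and 4 an unadjusted p under 0.05 on the higher side, with a median of 0.49, or of 0.19 with the mean of all probe sets of a gene. Smad7, the feedback inhibitor, had 2.0, 17.8 and 1.6 in Notch1+/+ tumours 1 to 3 and 42.5, 37.3 and 47.4 in Notch1f/f tumours 1 to 3 (log2 difference 1.40 ± 0.28, limma unadjusted p = 0.000665, adjusted p = 0.165). Skil, another inhibitor, had 287 ± 6.60 against 160 ± 26.3 without overlap, and Tgfbr2, a receptor chain, 751 ± 168 against 418 ± 148 with overlap. Klf10, which TGF-beta induces, had the opposite sign to these 3.

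Of 12 immediate-early genes, all measured, 11 had a difference above 0, with a median of 0.73, or of 0.22 without Notch1f/f tumour 3. In that tumour Fos had 1505 and Jun 799, while the other 5 tumours had at most 60.2 and 24.4. Fosb, Junb, Dusp1, Zfp36 and Nr4a1 were also highest in that tumour, while Egr1, Egr2, Ier2, Ier3 and Atf3 were highest in other tumours. Zfp36, a regulator of mRNA decay, was higher in every Notch1f/f tumour, at 408.4, 496.3 and 1130.9 against 110.7 to 189.0 (limma unadjusted p = 0.000552, adjusted p = 0.152), as was Egr2, at 25.9 ± 0.924 against 12.2 ± 1.72. Junb had 136 ± 104 against 59.7 ± 15.2 with overlap. Whether the immediate-early signals and the Klf2 and Klf6 values of Notch1f/f tumour 3 are linked was not tested.

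Of 6 glucocorticoid-induced genes, which the regulation of Klf9 shares, 3 had a difference above 0 and 3 below, with a median of 0.13 that was -0.16 without Notch1f/f tumour 3. Sgk1, a kinase, was higher without overlap, at 553 ± 112 against 238 ± 170 (limma unadjusted p = 0.0123, adjusted p = 0.294). Tsc22d3 had 1233 ± 972 against 483 ± 179 and Ddit4 1788 ± 1001 against 2438 ± 312, both with overlap.

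Of 7 measured cell cycle genes reported as targets of Klf2, Klf4 or Klf6, 2 had a difference above 0 and 5 below, with a median of -0.44 that was 0.31 without Notch1+/+ tumour 2. Cdkn1b, the inhibitor p27, was higher in each Notch1f/f tumour, at 1072 ± 284 against 353 ± 66.0 (limma unadjusted p = 0.000142, adjusted p = 0.0981), and Ccnd1, cyclin D1, lower in each, at 24.1 ± 8.67 against 202 ± 165 (0.000885 and 0.183). Myc had 649 ± 269 against 882 ± 280 with overlap. Cdkn1a, the inhibitor p21 and a known target of Klf4 and Klf6, had 39.5 ± 21.5 against 86.3 ± 104, where Notch1+/+ tumour 2 alone reached 205.2.

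Of 17 Klf and Sp relatives outside the 9 genes, 10 were measured, 5 above 0 and 5 below, with a median of -0.03. Sp4 was the one without overlap, at 98.2, 54.4 and 55.9 in Notch1+/+ tumours 1 to 3 and 186.0, 106.9 and 111.2 in Notch1f/f tumours 1 to 3 (log2 difference 0.82 ± 0.30, limma unadjusted p = 0.0247, adjusted p = 0.316). Sp1 had 783 ± 132 against 954 ± 19.9 and Sp7 16.7 ± 4.16 against 12.4 ± 1.61, both with overlap. Klf11, a close relative of Klf10, differed by -0.10 ± 0.38 and Klf16 by -0.24 ± 0.27.

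**Figure D4:**
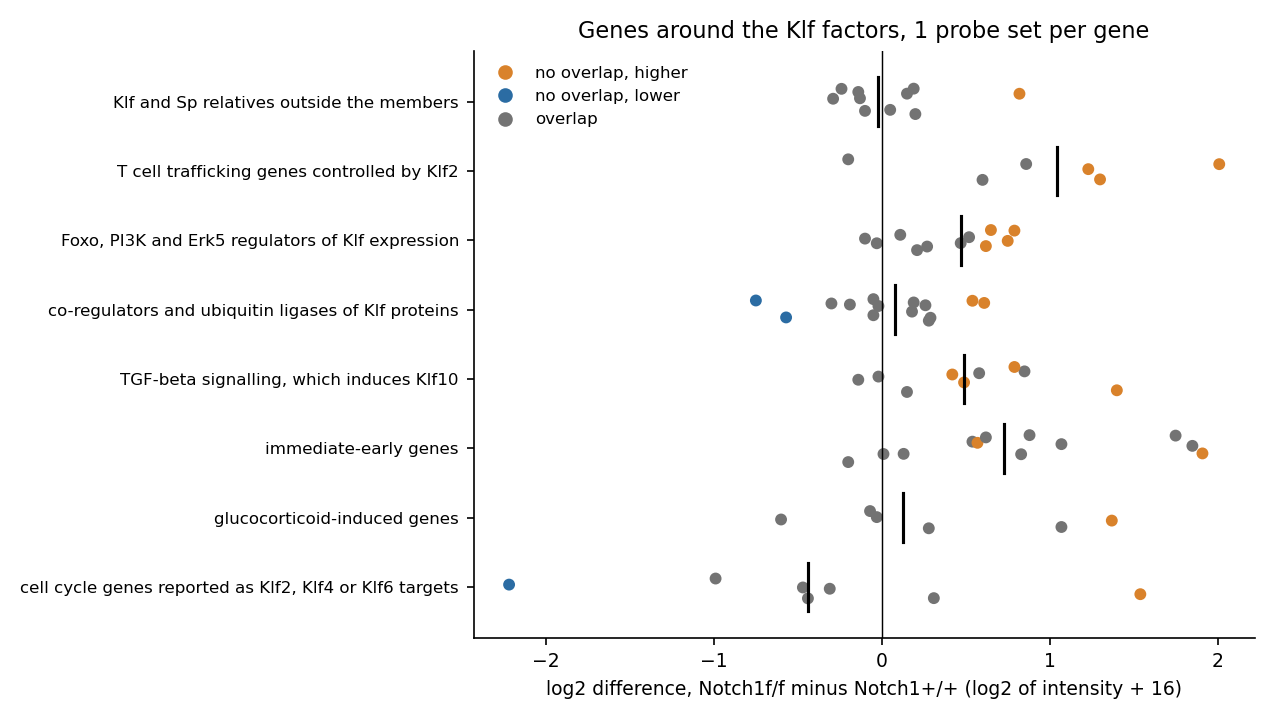
Log2 difference, Notch1f/f minus Notch1+/+ on the scale of log2(intensity + 16), of each measured gene of the 8 lists, with the list median as a black bar. Points are coloured by whether the genotypes overlap, and the medians run from -0.44 (cell cycle genes) to 1.05 (trafficking genes).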

How the data were processed

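RNA of 6 thymic lymphomas, 1 Affymetrix array each, 3 per genotype, was compared. The values are signal intensities on a linear scale deposited by the authors, made with MAS5 (version not given in the sources used here), per the submitters' processing notes. In the deposited table the mean of each array without the lowest and highest 2% of values was 100. Symbols are those of the array annotation. Looking up their Entrez identifiers among the RefSeq genes (GRCm38.p6) changed 0 of them. Control probe sets (64) were left out.

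Log2(intensity + 16) was modelled in limma 3.58.1 (R 4.3.3; lmFit, then eBayes with a mean-variance trend) over the 27022 probe sets at or above the 40th percentile of mean log2 value, two-sided, with Benjamini-Hochberg adjustment over all of them and no covariate, since the labels give no batch or pairing. The prior degrees of freedom were 5.21. The fit was tested on simulated data with an equal spread for all probe sets. Spreads differed between probe sets here, so that test is no evidence about the fit to these data. The number of arrays limits the precision. Single probe sets were also tested with an exact two-sided permutation test. List genes were represented by their brightest tested probe set.

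The members and lists were chosen with earlier results of these data known. The genes named are all member probe sets, all measured trafficking genes, any list gene past the threshold, up to 3 genes per other list with the smallest p-values, and the 5 genes most like Klf2. The other genes named (Foxo3, Mapk7, Map2k5, Sin3b, Ctbp1, Sin3a, Fos, Jun, Cdkn1a, Klf11 and Klf16) were chosen after their values were seen. Fosb, Dusp1, Nr4a1, Egr1, Ier2, Ier3 and Atf3 were also named then, to complete the immediate-early list. List and marker genes with no probe set of their symbol are not analysed here. Alternatives were each array left out, array weights, eBayes with no trend, no moderation, a threshold of 0.10, pseudocounts of 1 and 64, a 60th percentile filter or none, arrays centred on their medians or quantile normalised, and genes averaged over their probe sets. Plots were made in Python 3.11.15 (matplotlib 3.10.9).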

Additional observations from a re-analysis of the deposited data

How the results depend on the processing

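No Klf probe set passed an adjusted p of 0.05 in limma under any of the alternatives run. At 0.10 none passed with the reported settings, while Klf13 probe set 1432543_a_at passed with array weights (0.84, adjusted p = 0.09) and both tested Klf13 probe sets passed without Notch1f/f tumour 2. The count at an unadjusted p under 0.05 was 6, and it was 2 with a linear model without moderation, 7 without a filter, 8 with array weights and 4 to 9 with an array left out. The count without overlap was 7, and 6 to 8 under the other filters and normalisations. Klf2, Klf6, Klf7, Klf10, Klf13 and Klf4 kept their direction in every alternative run. Klf2 ranged from 1.30 to 2.39, the brightest Klf6 probe set from 0.72 to 1.52, and Klf6 probe set 1427742_a_at from 0.68 (pseudocount 64) to 2.47 (pseudocount 1). Directions reversed only for probe sets of Klf3 and Klf9, and the differences of those that reversed were about equal to their error or smaller. With an array left out, Klf3 ranged from -0.99 to 0.04 on 1454666_at, from -0.14 to 0.50 on 1429360_at, from -0.19 to 0.32 on 1421604_a_at, from -0.58 to 0.16 on 1441200_at and from -0.06 to 0.51 on 1442920_at. Klf9 ranged from -0.18 to 0.30 on 1456341_a_at, from -0.18 to 0.31 on 1428288_at, from -0.14 to 0.45 on 1428289_at and from -0.32 to 0.08 on 1436952_at. Array weights gave -0.09 on 1456341_a_at and -0.14 on 1428288_at, a pseudocount of 64 gave 0 on 1456341_a_at, a pseudocount of 1 gave -0.19 on 1428289_at, and the mean of the Klf9 probe sets was 0. The number of trafficking genes past the threshold was 0 to 1 with an array left out. The cause of these changes was not tested. No paired analysis was made, because each tumour came from a different mouse and the labels give no pairing. The tumour numbers follow the order of the samples within each genotype and pair nothing. Detection calls were not used, so the filter on mean value is the only limit on dim signals.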

Other observations

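As 1 value per gene, the mean log2 level over all probe sets of a gene, dim ones included, differed by 0.56 ± 0.16 for Klf13 (limma unadjusted p = 0.00867, adjusted p = 0.283), by 0.89 ± 0.34 for Klf6 (0.0297 and 0.319) and by 0.45 ± 0.24 for Klf7 (0.0917 and 0.415). The dim probe set of Klf13, which was not tested on its own, enters this mean.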
